A study of Rattus norvegicus with 12 samples.

Results

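The histone genes H2bc12, H1f1, Hist3h2ba and H4c14 were examined in fetal rat liver. They are 4 of 19 replication-dependent histone genes, and of 14497 genes in all, that had a probe of their own on the array. They were selected by name because their signal was high in polysome RNA against total RNA on these same arrays, in dams of both diets. Their polysome-against-total difference is therefore described and not tested, and no numerical threshold was part of the selection. The platform table linked 1 probe to each of the 4 genes and to no other gene: 10798475 for H2bc12, 10795203 for H1f1, 10733938 for Hist3h2ba and 10825151 for H4c14.

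Sprague Dawley rats supplied the livers, which were taken from fetuses at embryonic day 19 (E19). Control dams had free access to food, and the other dams were fasted for 48 hr before delivery; the labels call the livers of their fetuses IUGR (intrauterine growth restriction). From each diet, 3 arrays were hybridised with total liver RNA and 3 with polysome RNA, so that diet and fraction define 4 groups. The labels give 3 dams per diet and call the arrays biological replicates, and they do not say whether a preparation held 1 liver or several. Polysome RNA was extracted with acid phenol and chloroform from pooled preparations, whereas total RNA was isolated in guanidine thiocyanate over cesium chloride. Fraction and extraction method therefore cannot be told apart.

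Replication-dependent histones package newly copied DNA, and cells make them mainly during S phase. Their messages are short and mostly intronless, and they end in a conserved stem-loop in place of a poly(A) tail; the stem-loop binding protein Slbp holds that end and supports export, translation and timed decay of the message. Replacement histones are made throughout the cell cycle, mostly from polyadenylated messages. Fetal liver is a blood-forming organ as well as a growing epithelium, so it holds many dividing erythroid and hepatic cells.

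Promoter sequences are shown first, as a description of the 4 genes, which lie on 3 chromosomes. A link between promoter letters and the polysome-against-total difference was not tested. H2bc12 and H1f1 lie on chromosome 17, Hist3h2ba on chromosome 10 and H4c14 on chromosome 2 of the RefSeq assembly GRCr8. The RefSeq promoter table held 3 of the 4 genes, and the 150 bases before each annotated start are printed 5′ to 3′ on the gene's strand. These are chr17:47181941-47182090 (minus strand) for H2bc12, chr17:41794869-41795018 (minus strand) for H1f1 and chr10:44225271-44225420 (plus strand) for Hist3h2ba. Capitals mark matches, on either strand, to CCAAT (a common promoter box), to TATAAA (found close before many start sites), to ATTTGCAT (the octamer of many H2B promoters) and to AAACACA (a box known from H1 promoters).
H2bc12: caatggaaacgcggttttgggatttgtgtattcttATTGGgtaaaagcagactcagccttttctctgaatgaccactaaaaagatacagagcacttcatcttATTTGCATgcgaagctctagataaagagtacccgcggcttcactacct
H1f1: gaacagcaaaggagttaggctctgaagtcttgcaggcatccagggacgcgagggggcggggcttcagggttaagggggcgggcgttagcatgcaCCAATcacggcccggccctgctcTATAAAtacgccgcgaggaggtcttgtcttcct
Hist3h2ba: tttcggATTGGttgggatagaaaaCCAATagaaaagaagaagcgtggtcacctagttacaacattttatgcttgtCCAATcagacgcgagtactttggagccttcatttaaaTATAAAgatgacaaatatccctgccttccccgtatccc

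CCAAT was present in all 3 stretches, once each in H2bc12 and H1f1 and at 3 places in Hist3h2ba. TATAAA began 33 bases before the start of H1f1 and 38 before that of Hist3h2ba. The octamer ATTTGCAT began 48 bases before the start of H2bc12 and was not matched in the stretch of Hist3h2ba, the other H2B gene. AAACACA was matched in none of the 3. The matches did not overlap one another. Over 33469 RefSeq promoters cut to the same 150 bases, 23.5% held CCAAT, 8% TATAAA, 0.899% ATTTGCAT and 3.29% AAACACA. Of the 18 replication-dependent histone genes in that table, 17 held CCAAT, 7 TATAAA, 6 ATTTGCAT and 2 AAACACA. A match is a description of the letters only.

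Levels are given as log2(intensity + 1) of the deposited RMA values, and each group has n = 3 arrays. Array medians ran from 101.3 to 108.3 in intensity, and arrays of one group correlated at 0.991 to 0.996 over all probes. Of the 10 hepatocyte markers, which include Alb and Afp, 10 were above the filter level. With 3 arrays a group, precision is limited by their number. Values of different probes are not compared as levels.

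H2bc12, which encodes a core histone H2B, measured 10.91, 10.79 and 10.56 in fed total arrays 1 to 3 and 10.42, 10.82 and 10.78 in fasted total arrays. It measured 12.23, 12.21 and 12.07 in fed polysome arrays and 12.005, 12.014 and 12.036 in fasted polysome arrays. All polysome arrays lay above all total arrays. The fed and fasted total arrays overlapped, while the 3 fasted polysome arrays lay just below the 3 fed ones. The polysome level exceeded the total level 2.67-fold in fed dams (1.42 ± 0.11 log2, with the standard error (SE) of the fit) and 2.54-fold in fasted dams (1.34 ± 0.11). Only 9 of the 10174 tested genes had a higher polysome-minus-total value than H2bc12 in fed dams, and 22 in fasted dams.

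H1f1 encodes a linker histone, which binds where DNA enters and leaves the nucleosome. It measured 11.86, 11.79 and 11.48 in fed total arrays and 11.29, 11.72 and 11.51 in fasted total arrays. In polysome RNA it measured 13.02, 12.93 and 12.73 in fed and 12.92, 12.90 and 12.72 in fasted arrays. The diets overlapped in both fractions, and the fractions did not overlap. The polysome level was 2.27-fold the total level in fed dams (1.18 ± 0.12 SE log2) and 2.54-fold in fasted dams (1.34 ± 0.12). Higher values were found for 24 tested genes in fed dams and 23 in fasted dams.

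Hist3h2ba, another core histone H2B gene, measured 10.72, 10.53 and 10.21 in fed total arrays and 10.30, 10.94 and 10.49 in fasted total arrays. In polysome RNA it measured 11.47, 11.60 and 11.60 in fed and 11.59, 11.66 and 11.62 in fasted arrays. Its total arrays were widely spread and its polysome arrays lay close together, again with no overlap between fractions. The polysome level was 2.10-fold the total level in fed dams (1.07 ± 0.15 SE log2) and 2.06-fold in fasted dams (1.04 ± 0.15). Higher values were found for 46 tested genes in fed and 72 in fasted dams.

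H4c14 encodes histone H4, a core histone that many gene copies encode. It measured 12.69, 12.51 and 12.26 in fed total arrays and 12.11, 12.54 and 12.42 in fasted total arrays. In polysome RNA it measured 13.56, 13.42 and 13.40 in fed and 13.58, 13.50 and 13.48 in fasted arrays. The fractions did not overlap in either diet. The polysome level was 1.96-fold the total level in fed dams (0.97 ± 0.12 SE log2) and 2.24-fold in fasted dams (1.16 ± 0.12). Higher values were found for 83 tested genes in fed and 44 in fasted dams.

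**Figure D1:**
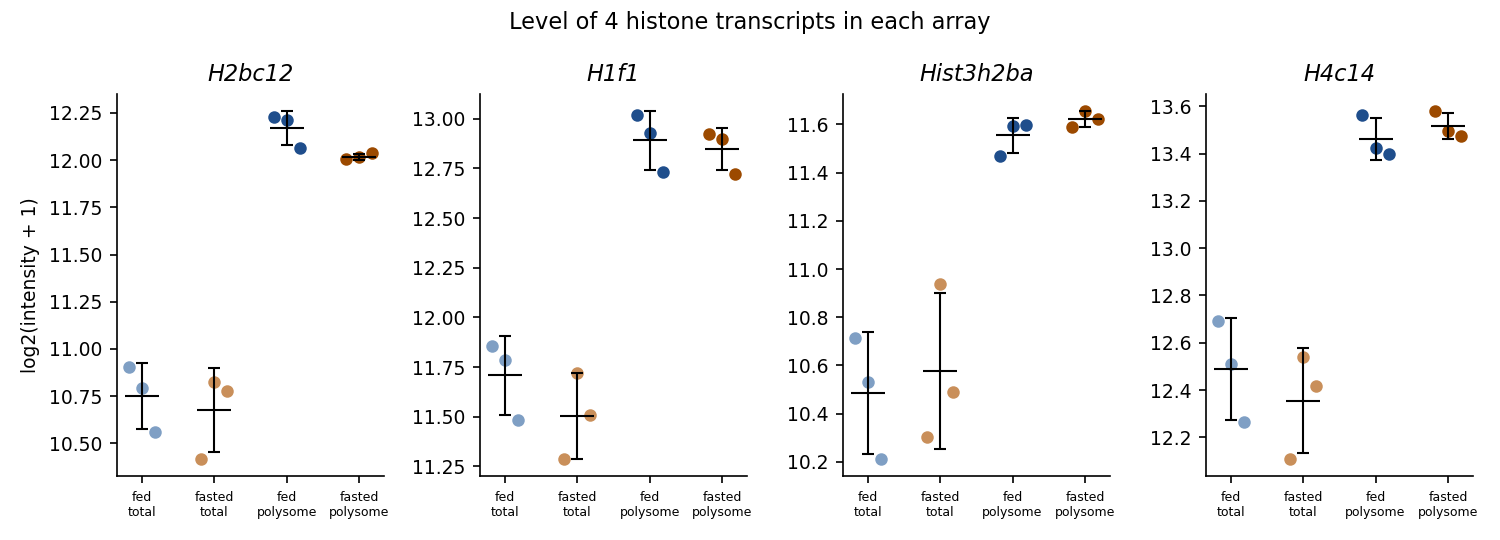
Log2(intensity + 1) of H2bc12, H1f1, Hist3h2ba and H4c14 in each of the 12 arrays, with 1 point per array (replicates 1 to 3 from left to right), horizontal bars at the group mean and error bars of 1 SD (n = 3). Each gene has its own vertical axis, which does not start at 0. In all 4 genes the 6 polysome points lie above the 6 total points, and fed and fasted points of a fraction lie side by side.

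As background for these separations, 29.4% of the tested genes had all 3 polysome arrays above all 3 total arrays in fed dams and 31.1% in fasted dams. By limma's adjusted p, 43.5% and 43.7% of tested genes differed between fractions in fed and fasted dams, and 24.1% and 25.5% were higher in polysome RNA. The 4 genes were selected on this contrast, so nothing further is read from their separation. The lowest of their differences was 0.97 (H4c14, fed). The next replication-dependent histone by the mean over diets was the H2A gene H2ac4, at 0.50 ± 0.12 SE log2 in fed and 0.70 ± 0.12 in fasted dams. Between arrays with the same number in a diet, the polysome-minus-total difference ran from 1.19 to 1.59 log2 for H2bc12, from 1.14 to 1.63 for H1f1, from 0.72 to 1.38 for Hist3h2ba and from 0.87 to 1.47 for H4c14. In H2bc12, H1f1 and H4c14 the highest of these was that of fasted arrays 1, where the total level was lowest.

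**Figure D2:**
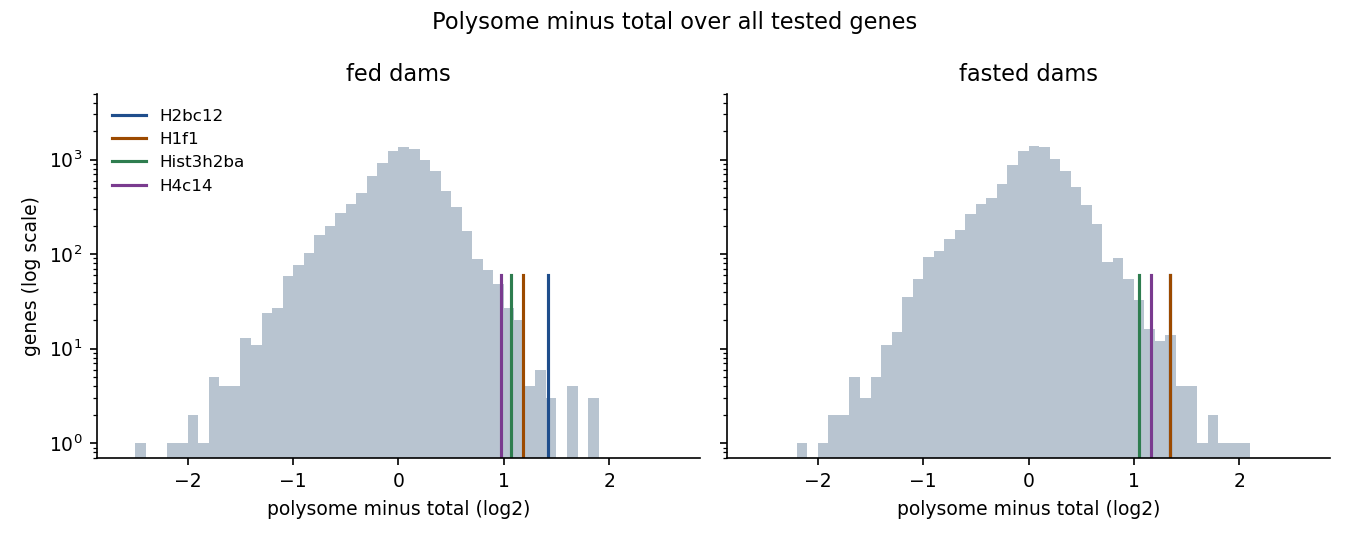
Histograms of polysome minus total (log2, bins of 0.1) over the 10174 tested genes, with the number of genes on a log axis, for fed dams (left) and fasted dams (right). Coloured lines mark H2bc12, H1f1, Hist3h2ba and H4c14, which lie between 0.97 and 1.42 in the right-hand tail; in fasted dams the lines of H2bc12 and H1f1 fall together at 1.34.

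The other replication-dependent histones had smaller differences between fractions, an order that follows from the selection of the 4 genes as high. Of the 19 genes, 18 passed the filter on dim probes (a mean of at least 6.07 log2); H2bu1, an H2B gene, did not, at a mean of 5.51. The median polysome-minus-total value of the 18 was 0.21 log2 in fed and 0.35 in fasted dams, against 0.04 and 0.05 over all tested genes. Without the 4 selected genes the median of the remaining 14 was 0.18 and 0.29, with 11 of 14 above 0 in fed and 12 of 14 in fasted dams. Over all tested genes, 55.4% and 57.7% were above 0. After H2ac4, the next highest value was that of the H2B gene Hist1h2bg, at 0.35 ± 0.08 SE log2 in fed and 0.46 ± 0.08 in fasted dams. The lowest mean values were those of H2ac25 at -0.04 and -0.10, the H2B gene H2bc18 at -0.02 and 0.05, and the H2A gene H2ac21 at 0.11 and -0.03. H2ac21 had a wide error (SE 0.29), with fed polysome array 1 far above the other arrays.

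Genes of one histone family gave different values, each read from its brightest probe. The selection of the 4 genes as high fixes their place in these comparisons. Among linker histones, H1f5 measured 0.34 and 0.39 log2 and H1f4 -0.02 and 0.10, in fed and fasted dams, beside 1.18 and 1.34 for H1f1. Among H4 genes, Hist1h4b measured 0.19 and 0.30 beside 0.97 and 1.16 for H4c14. Immediate neighbours in the genome differed as well. Hist1h4b lies next to H2bc12, and Hist2h3c2, an H3 gene at 0.11 and 0.16, lies next to H4c14. H2bu1 and H2ac25 are the nearest genes on one side of Hist3h2ba. None of these neighbours reached the values of the 4 genes, although the same selection that picked the 4 fixes that order.

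Probes of one gene did not always match. The bright probe of Hist1h2an gave 0.18 and 0.27 log2 in fed and fasted dams, and its other probe gave 0.62 and 0.57. The bright probe of Hist1h2ail1 gave 0.18 and 0.19, and its other probe 0.72 and 0.64. In addition, 3 probes that the platform table links to H2bc12 together with other H2B genes were not assigned to a gene; they gave 0.05 to 0.16 in fed and 0.14 to 0.44 in fasted dams. The coding sequences of histone genes of one family are nearly identical, and the probe sequences were not analysed here. Signal of near-identical copies on these probes was not tested.

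**Figure D3:**
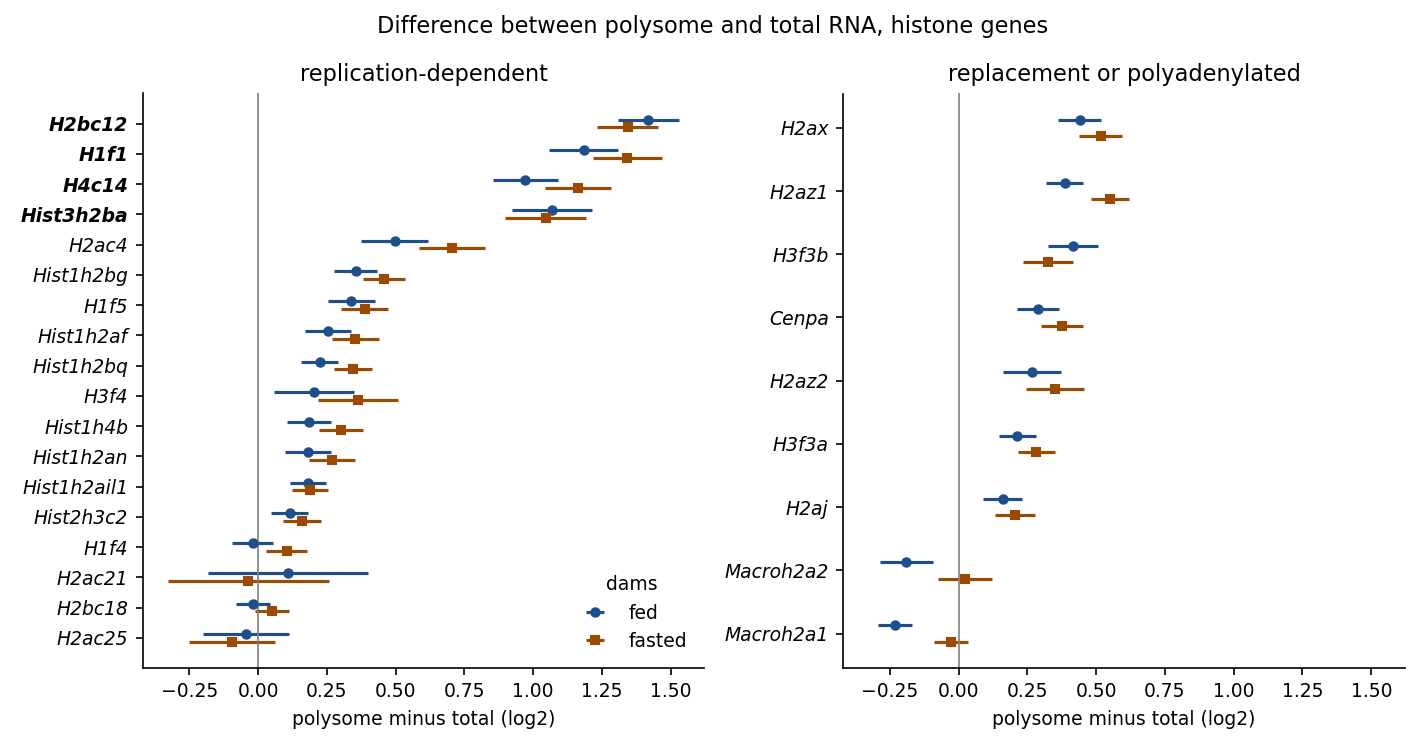
Polysome minus total (log2) of the 18 tested replication-dependent histone genes (left) and 9 replacement or polyadenylated histone genes (right), in fed (circles) and fasted dams (squares), with bars of 1 SE of the limma fit (n = 3 arrays per group). H2bc12, H1f1, H4c14 and Hist3h2ba, in bold, lie at 0.97 to 1.42 in fed and fasted dams, and the other genes lie at or below 0.70.

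Replacement histones also lay mostly above 0 in polysome RNA. Their median was 0.27 log2 in fed and 0.33 in fasted dams, with 7 and 8 of the 9 tested genes above 0. H2ax, the DNA damage histone, measured 0.44 and 0.52, and H2az1, the H2A.Z variant of promoters, 0.39 and 0.55. The large variants Macroh2a1 and Macroh2a2 measured -0.23 and -0.19 in fed and -0.03 and 0.02 in fasted dams. The median of the replication-dependent genes was 0.21 in fed and 0.35 in fasted dams with the 4, and 0.18 and 0.29 without them. Leaving out genes selected as high on this contrast lowers that median, so no likeness of the lists is read from it. The difference between the lists was not tested.

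The next comparison asked whether maternal fasting altered these transcripts, a contrast within a fraction that the selection did not use. In total RNA, 0 of the 4 genes passed the threshold of adjusted p 0.05, against 1.03% of all tested genes (0.737% higher and 0.295% lower after fasting, or 75 and 30 genes; 73 and 19 with arrays centred on their median), and 0 had an unadjusted p under 0.05. Fasted minus fed was -0.20 ± 0.12 SE log2 for H1f1 (limma adjusted p = 0.463), -0.13 ± 0.12 for H4c14 (0.64), -0.08 ± 0.11 for H2bc12 (0.796) and 0.09 ± 0.15 for Hist3h2ba (0.819). The 95% intervals ran from -0.47 to 0.07 for H1f1, from -0.39 to 0.12 for H4c14, from -0.32 to 0.16 for H2bc12 and from -0.22 to 0.41 for Hist3h2ba. The sign rested on single arrays for H2bc12, at 0.05 without fasted total 1, and for Hist3h2ba, at -0.09 without fasted total 2 and -0.04 without fed total 3.

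In polysome RNA, 0 of the 4 genes passed, against 2.01% of all tested genes (1.59% higher and 0.423% lower, or 162 and 43 genes), and again 0 had an unadjusted p under 0.05. H2bc12 measured -0.15 ± 0.11 SE log2 (limma adjusted p = 0.477; 95% interval -0.39 to 0.09). Over all tested genes the calls were 167 higher and 77 lower with quantile normalization, and 176 and 26 with arrays centred on their median. The fasted arrays of H2bc12 all lay below the fed arrays, as did those of 8.38% of tested genes. H1f1 measured -0.04 ± 0.12 (0.869; -0.31 to 0.22), Hist3h2ba 0.07 ± 0.15 (0.832; -0.25 to 0.38) and H4c14 0.06 ± 0.12 (0.826; -0.20 to 0.31). H1f1 changed sign without fed polysome 1 and without fasted polysome 3, at 0.02 in both.

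The fasting effect in polysome RNA minus that in total RNA was 0.19 ± 0.17 SE log2 for H4c14, 0.16 ± 0.18 for H1f1, -0.02 ± 0.21 for Hist3h2ba and -0.07 ± 0.16 for H2bc12. The limma adjusted p was 0.897, 0.923, 0.992 and 0.966, so 0 of the 4 passed. Over all tested genes 0% passed, with 549 genes at an unadjusted p under 0.05. The 95% interval was widest for Hist3h2ba, from -0.47 to 0.42, and for H4c14 it ran from -0.17 to 0.55. This difference is also the diet difference of polysome minus total. The genes were selected as high in both diets, so the selection may touch it if the diets did not weigh equally. Without fasted total 2 and without fed total 3 the sign turned for H2bc12 (0.00094 and 0.02) and for Hist3h2ba (0.16 and 0.11).

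**Figure D4:**
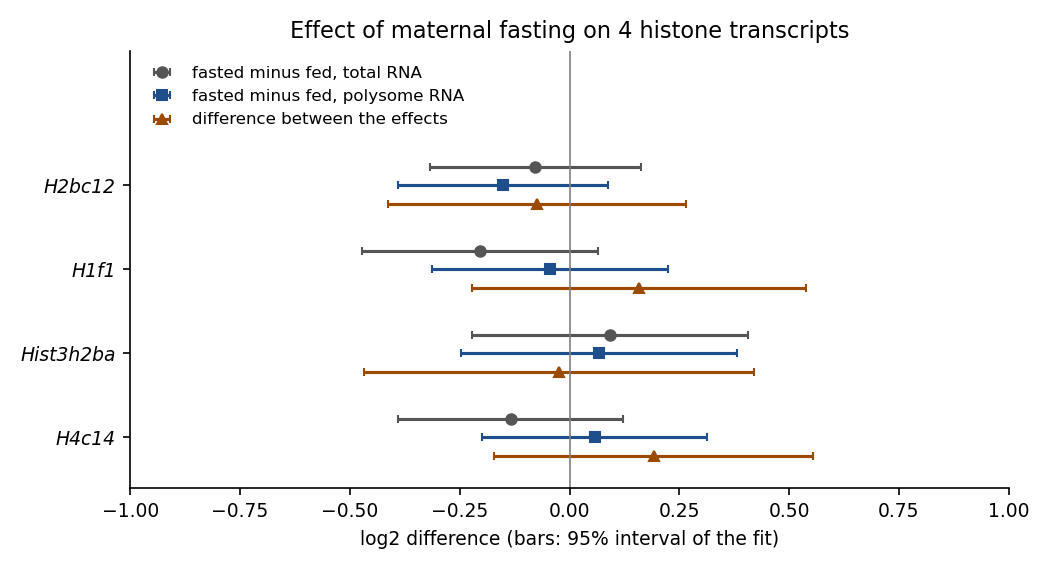
Fasted minus fed in total RNA (circles) and in polysome RNA (squares) and the difference between the effects (triangles) for H2bc12, H1f1, Hist3h2ba and H4c14, as log2 differences with 95% intervals of the limma fit (n = 3 arrays per group). All 12 intervals include 0.

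The whole set of replication-dependent histones gave the same counts. Of the 18 tested, 0 passed in total RNA, in polysome RNA and for the difference between effects by limma, with 1, 1 and 0 genes at an unadjusted p under 0.05. Over all 10174 tested genes 1646, 2122 and 549 had such a p, and in the 2 fractions 5063 and 4684 lay below 0. The median fasting effect was -0.06 log2 in total RNA, with 15 of 18 genes below 0, and 0.04 in polysome RNA, with 12 of 18 above 0. Over all tested genes the medians were 0.0007 and 0.02. Single arrays moved the medians of the 18: in total RNA to -0.02 when fasted array 1 was left out, -0.03 when fed array 1 was, -0.10 when fasted array 2 was and -0.12 when fed array 3 was, and in polysome RNA to 0.0057 without fasted polysome 1, 0.0095 without fed polysome 3 and 0.09 without fed polysome 1. The polysome median was 0.02 with quantile normalization and with the mean of a gene's probes, and 0.10 without fed polysome 1 and fasted polysome 2 together. The smallest p in total RNA was that of H2ac25, at 0.38 ± 0.16 SE log2 (limma adjusted p = 0.249), followed by H1f1. In polysome RNA it was that of Hist1h4b at 0.23 ± 0.08 (0.135), followed by H2ac25 at 0.33 ± 0.16 (0.255). For the difference between effects, Hist1h2bq and H2ac4, of H2B and H2A, came first at 0.12 ± 0.10 and 0.21 ± 0.17 (0.887 and 0.891). Of the 3 germ-line histone genes listed apart, H1f6 lay under the filter level; H2ac1 and H2bc1 measured -0.19 ± 0.07 and -0.05 ± 0.09 in total RNA (limma adjusted p = 0.223 and 0.823).

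Of the 9 replacement histones tested, 0 passed by limma in total RNA, in polysome RNA or for the difference between effects. An unadjusted p under 0.05 was found for 1, 2 and 1 of them, against 1646, 2122 and 549 of the 10174 tested genes. H3f3b, an H3.3 gene, measured 0.25 ± 0.09 SE log2 in total RNA (limma adjusted p = 0.197), and H2ax 0.12 ± 0.08 (0.482). In polysome RNA, Macroh2a2 measured 0.29 ± 0.10 (0.123) and H2ax 0.20 ± 0.08 (0.172). Macroh2a1 and H2az1 had the smallest p for the difference between effects, at 0.20 ± 0.09 and 0.16 ± 0.10 (0.856 and 0.863).

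Slbp, which binds the histone stem-loop, measured 0.04 ± 0.09 SE log2 for fasting in total RNA (limma adjusted p = 0.872) and 0.23 ± 0.09 in polysome RNA (0.162). Its polysome-minus-total value was 0.00 in fed and 0.19 in fasted dams. Of the 20 tested factors of histone message processing, translation and decay, 0 passed by limma in either fraction or for the difference between effects. An unadjusted p under 0.05 was found for 3, 3 and 0 of them, against 1646, 2122 and 549 of the 10174 tested genes. Ncbp1, the large cap-binding subunit of the nucleus, and Tut4, a uridylyl transferase, measured -0.24 ± 0.07 and 0.35 ± 0.12 in total RNA (0.105 and 0.168). Lsm10, a protein of the U7 particle that cuts histone messages, measured 0.40 ± 0.13 in polysome RNA (0.116). The median of the 20 genes was -0.06 in total and -0.02 in polysome RNA, and their median polysome-minus-total value was 0.10 in each diet. The smallest p for the difference between effects were those of Lsm11, the partner of Lsm10, at 0.24 ± 0.14, and Lsm1 at 0.25 ± 0.16 (0.863 and 0.869).

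Histone chaperones hand new histones to DNA. Of 12 tested, 0 passed in either fraction or for the difference between effects by limma, with 2, 1 and 0 at an unadjusted p under 0.05; 10 of 12 lay below 0 in each fraction, with medians of -0.11 and -0.10 log2, beside 5063 and 4684 of the 10174 tested genes below 0. Nasp, a carrier of H1 and H3, and Supt16h, a subunit of the FACT complex, measured -0.25 ± 0.10 and -0.30 ± 0.12 SE log2 in total RNA (limma adjusted p = 0.219 and 0.251). Hira, the H3.3 chaperone, and Nap1l1, a carrier of H2A and H2B, measured -0.32 ± 0.10 and -0.16 ± 0.08 in polysome RNA (0.0928 and 0.314). For the difference between effects, Asf1b measured 0.27 ± 0.13 and Ipo4 -0.26 ± 0.17 (0.856 and 0.875). Genes of DNA replication and G1/S are active when these histones are made. Of 47, 41 lay below 0 after fasting in total RNA and 38 in polysome RNA, with medians of -0.11 and -0.09 log2. An unadjusted p under 0.05 was found for 12 and 13 of the 47, against 1646 and 2122 of the 10174 tested genes. Orc1, which helps mark replication origins, was the only one of the 47 that passed. It measured -0.62 ± 0.10 and -0.59 ± 0.10 SE log2 in total and polysome RNA (limma adjusted p = 0.0129 and 0.0173). For the difference between effects 0 of the 47 passed, with 0 at an unadjusted p under 0.05; Pcna, the sliding clamp of replication, and Lig1, a DNA ligase, came first at 0.21 ± 0.11 and -0.22 ± 0.11 (0.856 for both).

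Within each group of total RNA, the 4 transcripts shared their highest and their lowest array. In fed total RNA, array 3 was lowest and array 1 highest for all 4 genes, and in fasted total RNA array 1 was lowest and array 2 highest for all 4. The deviations from the group means correlated between the genes at 0.75 to 0.94 over the 12 arrays, with the highest value for H2bc12 and H4c14. These are correlations over arrays that the genes share, and deviations within a group sum to 0. The total arrays deviated most, so they weigh most in these correlations. With the mean deviation of the 4 genes, H2ac4, Hist1h2af and Hist1h2bg, of H2A and H2B, correlated at 0.90, 0.88 and 0.85. Of the 14 other replication-dependent histones 8 lay above 0.5, against 9.43% of the remaining tested genes; H2bc18 and H2ac25 lay at -0.19. In polysome RNA the deviations were smaller. H1f1 and H4c14 were highest in array 1 and lowest in array 3 in both diets, and H2bc12 was so in fed dams, while Hist3h2ba was lowest in array 1 in both.

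The spread was unequal between fractions. The standard deviation (SD, n = 3 arrays) of the 4 genes ran from 0.18 to 0.25 log2 in fed total and from 0.22 to 0.32 in fasted total RNA. In polysome RNA it ran from 0.07 to 0.15 in fed and from 0.02 to 0.11 in fasted dams. The summed variance was larger in total than in polysome RNA for all 4 genes and for 12 of the 18 replication-dependent histones, against 36.7% of all tested genes. The median SD of all tested genes was 0.09 in fed and fasted total RNA, 0.12 in fed polysome and 0.11 in fasted polysome RNA. With 3 arrays a group each SD is itself imprecise, and the difference in spread was not tested.

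**Figure D5:**
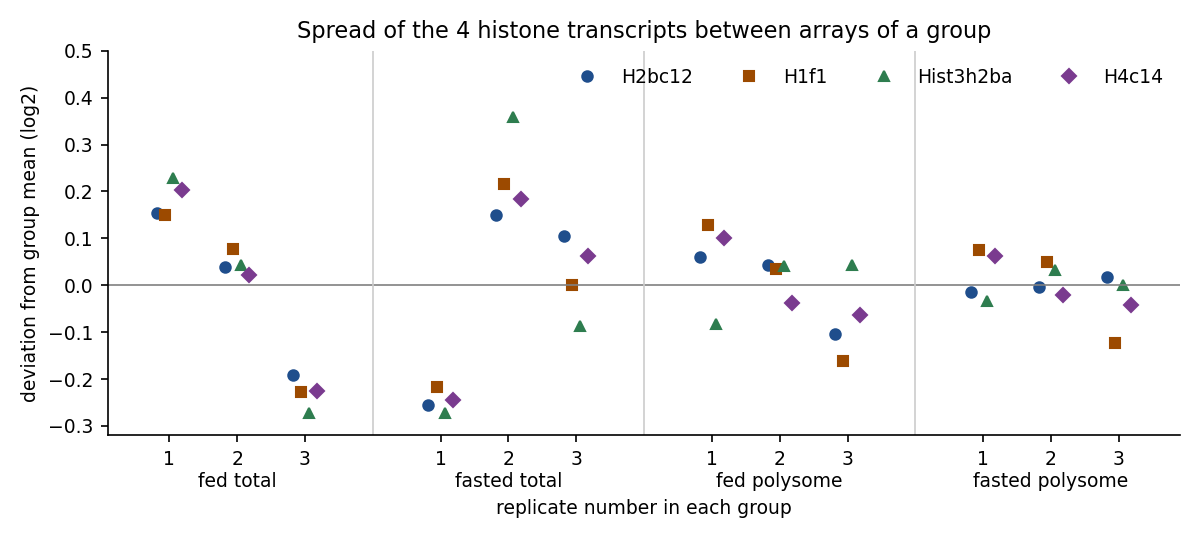
Deviation of each array from its group mean (log2) for H2bc12 (circles), H1f1 (squares), Hist3h2ba (triangles) and H4c14 (diamonds), with the replicate numbers of the 4 groups along the horizontal axis. In fed total array 3 and fasted total array 1 all 4 genes lie at -0.19 or lower, and in the polysome arrays they lie between -0.16 and 0.13.

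Genes with symbols that begin with LOC, RGD, AABR or Mir were left out of the next choice. Over the 12 arrays, the other tested genes whose levels ran most like the mean profile of the 4 histones were Trmt112, Uqcr11, Cox8a, Polr2e, Mospd3, Nfic, Guk1 and Tomm7, with Pearson correlations from 0.985 to 0.993. The 4 groups of arrays fix most of such a correlation, since any gene that differs between fractions shares that step. Uqcr11, a small subunit of respiratory complex III, measured 1.07 in fed and 1.14 log2 in fasted dams for polysome minus total, and Tomm7, a small subunit of the mitochondrial import pore, 1.04 and 1.21. Trmt112, a methyltransferase activator, measured only 0.43 and 0.47. Among other replication-dependent histones, Hist1h2bg was the most alike, at 0.979, rank 31 when all tested genes but the 4 were ranked.

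Markers of cell types are given here because some of them also differed between the fractions. Between diets, a change in the number of cells of a type and in RNA per cell cannot be told apart in bulk RNA. The median polysome-minus-total value in fed and fasted dams was -0.64 and -0.67 log2 for 7 endothelial markers, -0.56 and -0.61 for 10 macrophage markers and -0.16 and -0.18 for 10 hepatocyte markers. It was -0.05 and -0.02 for 10 erythroid, 0.07 and 0.20 for 9 mitosis, -0.07 and 0.09 for 8 neutrophil and -0.37 and 0.02 for 3 B lymphoid precursor markers. All measured markers passed the filter except Ltf of the neutrophil list. After fasting, 3 of the 7 endothelial markers were called higher in total RNA and 1 in polysome RNA by limma's adjusted p. Of the 10 macrophage markers, 2 were called higher in polysome RNA. Over all tested genes, 0.737% were called higher in total RNA and 1.59% in polysome RNA. No marker of the 7 lists was called lower, against 0.295% and 0.423% of all tested genes. The summed intensity of the endothelial markers was 5388 to 6025 in fed total, 6823 to 6899 in fasted total, 3593 to 3744 in fed polysome and 3949.8 to 4255 in fasted polysome arrays. That of the macrophage markers was 7506 to 7741, 8048 to 9181, 5588 to 5785 and 6473 to 6823 in the same order. Mitosis markers, which mark dividing cells, summed to 18072 to 19293, 17561 to 19102, 18179 to 18821 and 19118 to 20280.0. The part of cell composition in the histone values was not tested.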

How the data were processed

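Transcript levels were measured on 12 Affymetrix Rat Gene 1.0 ST arrays. The deposited intensity values are linear (3.62 to 21343.6), and the authors made them with RMA, per the submitters' processing notes; no version was given. RMA makes the distributions of arrays alike, so a change shared by most transcripts would not appear.

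Of 28826 probes, 15209 were linked to 1 gene symbol, 306 to several and 13311 were not listed; 15178 names were updated by Entrez identifier. The brightest probe stood for a gene (494 genes had several). Genes with a mean log2(intensity + 1) at or above the 40th percentile of all probes (6.07) were tested, which left 10174 of 14497. One limma model (version 3.58.1, R 4.3.3; 8 residual and 5.16 prior degrees of freedom) held a mean for each of the 4 groups. Its p values are two-sided and were adjusted by Benjamini-Hochberg over the tested genes. The scripts were tested on simulated data. Python 3.11.15 with matplotlib 3.10.9 drew the plots. P values measure the spread between the deposited samples.

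The genes, lists and alternatives were chosen with earlier results of these data known. Named genes are the 4 histones, Slbp, and from each list the called genes of a diet contrast or else the 2 with the smallest p. Also named are the replication-dependent histones with the 6 highest and 3 lowest polysome-minus-total values, and the 8 genes most like the 4. Symbols that begin with LOC, RGD, AABR or Mir were left out of those 8. Others named were chosen after their values were seen.

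What a replicate number marks is not stated in the labels. Over the tested genes, deviations of same-numbered total and polysome arrays correlated at 0.15 to 0.36 within a diet (6 pairs; 0.056 to 0.22 over all probes), against -0.14 to 0.25 for same-numbered fed and fasted arrays. These ranges overlap. Different-numbered total and polysome arrays of a diet correlated at -0.22 to -0.023 over the tested genes. By this check, which rests on the values alone, the numbers may pair total with polysome arrays. The model above has no block, so its errors do not use such a pairing, which entered only as an alternative. The alternatives tried were no filter, median centring, quantile normalization, averaging a gene's probes, leaving off the added 1, limma's trend and robust options, fitting only the groups compared, a replicate block, dropping each array in turn, and dropping fed polysome 1 with fasted polysome 2.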

Additional observations from a re-analysis of the deposited data

How the results depend on the processing

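Of 545 recomputed values, 9 changed sign. The 260 diet values of the 4 genes were judged by sign and by call only. A move beyond the spread between arrays was looked for in polysome-minus-total values and in the medians of the replication-dependent histones, and 1 was found. However, 261 equalled the main value, among them all those from a block or from prior options, or for which the array left out was not used, and these say nothing about stability. In 260 recomputed diet tests of the 4 genes, 0 passed, with limma adjusted p from 0.292 upwards. With the mean of a gene's probes, the fed polysome-minus-total median of the replication-dependent histones moved from 0.21 to 0.30. The sign changes all came with 1 array left out. For fasting in total RNA, H2bc12 ran from -0.17 to 0.050, H1f1 from -0.32 to -0.10, Hist3h2ba from -0.088 to 0.23 (-0.04 without fed total 3) and H4c14 from -0.25 to -0.01. In polysome RNA, H2bc12 ran from -0.20 to -0.12, H1f1 from -0.13 to 0.02 (0.0174 and 0.0195 above 0), Hist3h2ba from 0.03 to 0.09 and H4c14 from 0.03 to 0.11. For the difference between effects, H2bc12 ran from -0.20 to 0.022 (0.00094 without fasted total 2), H1f1 from 0.05 to 0.27, Hist3h2ba from -0.16 to 0.16 (0.11 without fed total 3) and H4c14 from 0.07 to 0.30. The median of the replication-dependent histones ran from -0.12 to -0.02 in total RNA and from 0.0057 to 0.09 in polysome RNA. Polysome minus total of the 4 genes stayed between 0.86 and 1.49 log2 in fed and 0.91 and 1.45 in fasted dams. That of the median of the replication-dependent histones ran from 0.17 to 0.27 in fed and from 0.31 to 0.37 in fasted dams. With the replicate number as a fixed block, or diet and number as a random block (correlation 0.228), no call of the 4 genes changed. A block cannot move these balanced estimates (H1f1 in total RNA is -0.20 in each fit), only their errors: its limma adjusted p was 0.376 and 0.449, against 0.463 without a block. With the random block, the difference between effects had limma adjusted p 0.774 for H1f1, 0.71 for H4c14, 0.898 for H2bc12 and 0.979 for Hist3h2ba. Without a block these were 0.923, 0.897, 0.966 and 0.992. The difference between effects needs all 12 arrays, so it was not run with only the arrays compared.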

Other observations

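Values above 1 log2 for polysome minus total were also found in genes that serve DNA replication or histone message decay. A probe of a replacement histone gene reached such a value in fed dams only. These genes were named after their values were seen. Rpa3, the small subunit of the replication protein A complex that coats single-stranded DNA, measured 1.16 in fed and 1.37 log2 in fasted dams, the highest of 47 DNA replication and G1/S genes, whose medians were 0.13 and 0.12. Lsm7, a subunit of the ring that starts 5′ decay of messages, measured 1.02 and 1.11, the highest of the 20 histone message factors. A dim probe of the H3.3 gene H3f3a, at a mean of 8.78 log2, gave 1.03 and 0.91, while the 3 other probes of that gene gave 0.21 to 0.49 in fed and 0.28 to 0.64 in fasted dams.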
